A study of Homo sapiens with 10 samples.

Results

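The PIWI and transposon-defence genes of the germ line were taken as 10 genes by name, PIWIL1, PIWIL2, PIWIL3, PIWIL4, DDX4, MAEL, MOV10L1, TDRD1, TDRD9 and ASZ1, and all 10 were found among the 64940 genes of the TPM table. TPM is a level corrected for transcript length and scaled to the same total in each library, so that it can be compared between genes. The RNA sequencing comprised 4 libraries of cells derived from H9, a line of human embryonic stem cells (hESCs). The 2 oeDAZL libraries came from human primordial germ cell-like cells (hPGCLCs) made to overexpress DAZL, an RNA-binding protein of germ cells, and they asked which transcripts differ once DAZL is raised. The 2 control libraries carry the genotype wt. Their labels call them spontaneously differentiated (SD) cells, whereas the description of the series calls them WT PGCLCs, so that what DAZL did and what a different culture did cannot be told apart here. According to the methods, hESCs were differentiated with BMP4 and BMP8a, and in overexpression experiments they were also transduced with lentivirus. H9 is the sole line, and nothing in the labels says that the libraries of a group came from separate cultures, so the P-values measure the spread between these libraries only.

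PIWI proteins are the germline branch of the Argonaute family. They bind piRNAs, small RNAs that are largely complementary to transposons, and use them to cleave transposon transcripts in the cytoplasm or, in the nucleus, to direct DNA methylation to transposon copies. The other genes of the list make or use piRNAs in cytoplasmic granules called nuage, where RNA helicases such as DDX4 and MOV10L1 meet Tudor-domain scaffolds such as TDRD1. In human gonads these genes are known from germ cells that have matured past the early primordial germ cell (PGC) stage, and many of them carry CpG-rich promoters whose methylation keeps them silent in somatic cells.

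In these libraries the list was nearly silent. Only PIWIL4 was above 1 TPM in any library. PIWIL1, PIWIL3, DDX4, TDRD9 and ASZ1 were listed at 0 in all 4 libraries. PIWIL2, MAEL, MOV10L1 and TDRD1 lay between, at 0.217 TPM or less, with 5 of their 16 values at 0. By comparison, 68.8% of the 19869 protein-coding genes of the table were above 1 TPM in some library and 12.7% were at 0 in all 4, against 10% and 50% of the list. None of the 10 genes was called different between the groups, where 0.689% of all genes in the main test were called. PIWIL4 alone was high enough to enter that test, so the absence of calls says little about the list.

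The promoters of silent and expressed members of the pathway are shown here for their CpG dinucleotides, the sites at which DNA methylation occurs, which are printed in capitals. PIWIL1, MAEL and TDRD1 are genes at or near 0, and TDRKH is an expressed partner of the PIWI proteins. Each sequence is the 250 bases before a RefSeq transcript start on GRCh38.p14, read 5′ to 3′ on the strand of the gene. They are chr12:130337637-130337886 (+) for PIWIL1, chr1:166989030-166989279 (+) for the second of the MAEL starts, chr10:114179037-114179286 (+) for TDRD1 and chr1:151790501-151790750 (-) for TDRKH.
PIWIL1: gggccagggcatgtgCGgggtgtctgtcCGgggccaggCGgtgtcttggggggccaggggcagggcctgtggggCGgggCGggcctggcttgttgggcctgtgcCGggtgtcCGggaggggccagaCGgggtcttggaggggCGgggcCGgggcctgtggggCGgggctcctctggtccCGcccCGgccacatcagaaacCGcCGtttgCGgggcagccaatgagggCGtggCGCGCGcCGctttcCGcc
MAEL: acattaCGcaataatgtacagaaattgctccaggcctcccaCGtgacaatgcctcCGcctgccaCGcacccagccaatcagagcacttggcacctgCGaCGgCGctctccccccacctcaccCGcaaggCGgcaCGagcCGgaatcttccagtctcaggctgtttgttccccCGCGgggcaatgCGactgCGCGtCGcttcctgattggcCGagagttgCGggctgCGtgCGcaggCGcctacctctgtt
TDRD1: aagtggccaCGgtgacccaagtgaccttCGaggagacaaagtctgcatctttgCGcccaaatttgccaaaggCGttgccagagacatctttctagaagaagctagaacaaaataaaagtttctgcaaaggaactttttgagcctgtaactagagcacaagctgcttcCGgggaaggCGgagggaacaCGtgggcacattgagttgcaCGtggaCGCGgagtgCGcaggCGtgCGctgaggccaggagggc
TDRKH: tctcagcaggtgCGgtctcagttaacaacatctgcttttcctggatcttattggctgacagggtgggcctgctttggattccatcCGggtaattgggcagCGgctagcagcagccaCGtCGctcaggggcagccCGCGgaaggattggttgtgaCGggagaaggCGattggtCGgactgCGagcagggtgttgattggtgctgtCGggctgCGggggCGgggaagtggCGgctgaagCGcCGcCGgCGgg

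Most of the promoters of the list were not poor in CpG. The PIWIL1 window holds 22 CpG, the MAEL window 22 and the TDRD1 window 13, against 19 in the window of TDRKH and a median of 11 over all 35116 windows. RefSeq windows were found for 7 of the 10 genes, 9 windows in all (PIWIL2, PIWIL3 and PIWIL4 have none in the table used). The ratio of observed to expected CpG had a median of 0.781 over these 9 windows and of 0.558 over all windows, and 8 of the 9 were above the latter. The piRNA partner genes described below gave a median of 0.752 over 27 windows of 21 genes. The exception was DDX4, whose window (chr5:55766635-55766884, +) holds 0 CpG and 33.6% G and C. This RefSeq start lies inside the gene, downstream of the GENCODE 44 canonical start at position 55738061. DNA methylation was not measured here, and its part in the low levels was not tested.

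**Figure D1:**
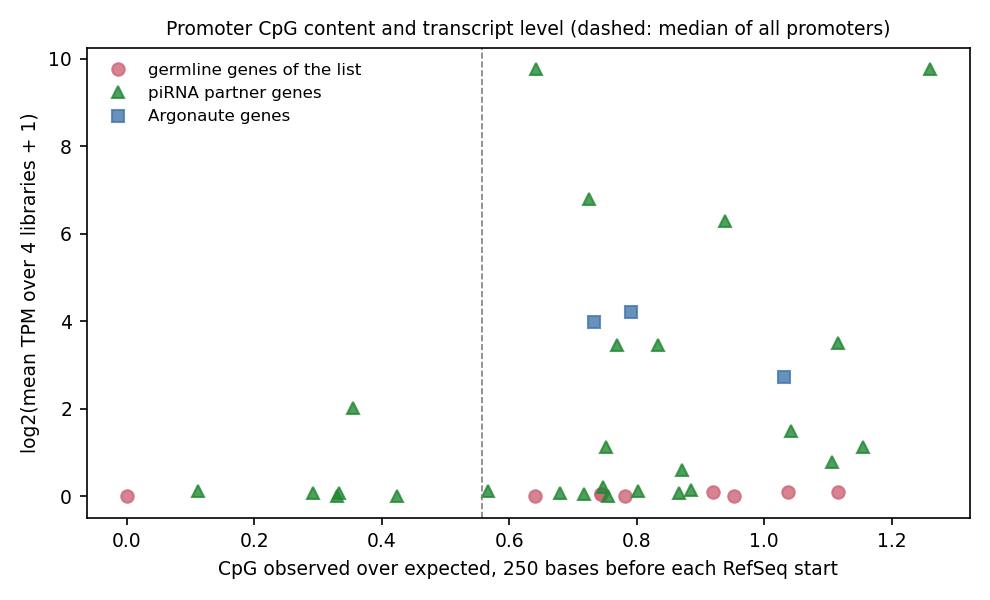
CpG content of promoters and transcript level. Each point is the window of 250 bases before a RefSeq start, with the ratio of observed to expected CpG on the x axis and log2(mean TPM over 4 libraries + 1) on the y axis. The list (circles) lies along the bottom, with 8 of its 9 windows to the right of the dashed median of 0.558. PIWIL2, PIWIL3 and PIWIL4 have no window and are not shown. The same range holds AGO1, AGO3 and AGO4 (squares) and most windows of the piRNA partner genes (triangles), many of which are also low. SPOCD1, a partner at a mean of 3.03 TPM, lies to the left at 0.354.

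The same windows were searched on both strands for CACGTG, an E-box, and for GCGGGAA, a site of the E2F6 type, both of which are known from promoters of germline genes. The E-box stood in 3 windows of the list, those of MAEL shown above and both windows of TDRD1, which overlap each other, and it was present in 6.34% of all windows. In capitals and small letters it reads caCGtg in the sequences above. The E2F6-type site stood in the window of ASZ1 alone of the 9 (chr7:117427494-117427743, -), and in 5.52% of all windows. A match describes the letters only.

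DAZL was at 0 and 0.0333 TPM in control and at 102 and 101 TPM in oeDAZL. It rose by a log2 fold change of 6.65 (SE 0.11, adjusted P = 1.76e-05, limma), which checks the labels of the overexpression. Throughout, log2 fold changes are on the scale of log2(TPM + 1), which understates changes of low genes, and come from limma fitted to the 16687 genes with a mean of at least 1 TPM. A called gene had to differ by 2-fold or more with an unadjusted P-value no higher than 0.05. Of all genes tested, 0.689% were called, 0.126% higher and 0.563% lower in oeDAZL. An unadjusted P-value under 0.05 alone was reached by 20.2%, and a Benjamini-Hochberg adjusted P-value under 0.05 by 0.0599%. The median log2 fold change of all tested genes was -0.08.

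The germ cell identity behind these values was read from marker genes. Of 8 PGC markers, 7 were above 1 TPM in some library. TFAP2C was at 53.9 and 49.1 TPM in the controls and 44.3 and 50.4 in oeDAZL. By contrast, SOX17 was between 2.52 and 3.35 TPM, PRDM1 between 1.47 and 2.32, DPPA3 between 0.716 and 2.17 and NANOS3 between 0.732 and 1.66. With levels this far apart, TFAP2C alone does not settle germ cell identity. Summed over the 8 markers, the level was 104 to 113 TPM in control and 116 to 117 in oeDAZL. TFAP2C and PDPN made up most of this sum, so that it says little about the other markers. PDPN, which is not restricted to PGCs, was the sole tested PGC marker with a positive log2 fold change, at 32.9 and 49.7 TPM against 58.5 and 52.5, and the other 6 were negative, with a median over the 7 of -0.12. Of 6 markers of later germ cells, DAZL and DMRT1 were above 1 TPM in some library. DAZL was so in oeDAZL only, where it was the gene overexpressed, and thus does not speak for germ cell identity. DMRT1 was at 0.848 and 1.01 TPM in control and 1.48 and 1.74 in oeDAZL. DDX4 was at 0 throughout, and NANOS2, SYCP3 and TEX14 were at most at 0.443 TPM. All 6 amnion and trophoblast markers were above 1 TPM, summing to 3432 to 3604 TPM in control and 3613 to 3709 in oeDAZL. The higher sum was that of IGFBP3, at 1711 and 1816 TPM against 2143 and 1978, whereas the other 5 had negative log2 fold changes and the median of the 6 was -0.22. All 6 markers of mesoderm and mesenchyme were above 1 TPM too, summing to 2208 to 2311 and 1961 to 1987. Here HAND1 went against the sum, at 958 and 1042 TPM against 1250 and 1247. TWIST1 also had a positive log2 fold change, of 0.10, with overlapping groups. The lower sum was mostly that of COL1A1, at 729 and 651 TPM against 455 and 486, and of COL3A1, given below. The neural list, 3 of whose 4 markers were above 1 TPM, summed to 262 to 351 and 411 to 443. Nearly all of that was NES, which is not specific to neural cells, at 253 and 347 TPM against 440 and 409, whereas SOX2, PAX6 and SOX1 each had both oeDAZL libraries under both controls. Among all genes above 0 in any library, 40.5% had groups that did not overlap, and among the tested genes, which include SOX2 and PAX6, 54.4%. The endoderm list, with 4 of 4 above 1 TPM, summed to 47.3 to 92.7 and 42.5 to 53.3. Of 4 pluripotency markers 2 were above 1 TPM, POU5F1 and LIN28A, and the list summed to 440 to 490 in control and 422 to 441 in oeDAZL. LIN28A made up most of this sum, at 476 and 428 TPM against 417 and 401, while POU5F1 was at 13.6 and 10.6 against 22.4 and 20.4 TPM (log2 fold change 0.79, adjusted P = 0.0896, limma) and NANOG at 0.432 and 0.507 against 0.813 and 0.532. Of the markers of other cell types, COL3A1, a fibrillar collagen of mesenchyme, was called lower in oeDAZL, at 583 and 479 TPM in control and 224 and 220 in oeDAZL (log2 fold change -1.25, adjusted P = 0.0344, limma). CGA, AFP and PAX6 were also called lower, with log2 fold changes of -1.18, -1.04 and -1.30, and did not pass after adjustment. CGA was at 15.5 and 10.4 TPM in control and 4.34 and 5.82 in oeDAZL. AFP was at 36.3 and 13.1 against 8.91 and 11.6, and PAX6 at 3.83 and 1.14 against 0.0967 and 0.558. For AFP and PAX6 much of the difference came from control replicate 1. In bulk libraries such as these, fewer cells of a type and less RNA per cell cannot be told apart, and what the makeup of the culture contributes to the levels below was not tested.

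PIWIL4 is the human counterpart of mouse MIWI2, a PIWI protein that enters the nucleus. In the mouse MIWI2 is needed for DNA methylation of transposons in fetal male germ cells. For PIWIL4 the controls gave 2.55 and 1.42 TPM, and the oeDAZL libraries 1.62 and 0.633 TPM. The groups overlapped, since oeDAZL replicate 1 lay between the controls, and only oeDAZL replicate 2 was under 1 TPM. The mean was 1.99 ± 0.795 TPM in control and 1.12 ± 0.695 in oeDAZL (SD, n = 2), with a log2 fold change of -0.50 (SE 0.33, 95% interval -1.30 to 0.30). This did not pass the test (adjusted P = 0.432, limma), and the interval holds both no change and a fall of more than 2-fold. PIWIL4 was above 31.9% to 39.1% of protein-coding genes in the 4 libraries, and it made up 78.6% to 96.7% of the summed TPM of the list, which came to 2.91 and 1.47 in control and 1.98 and 0.806 in oeDAZL.

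**Figure D2:**
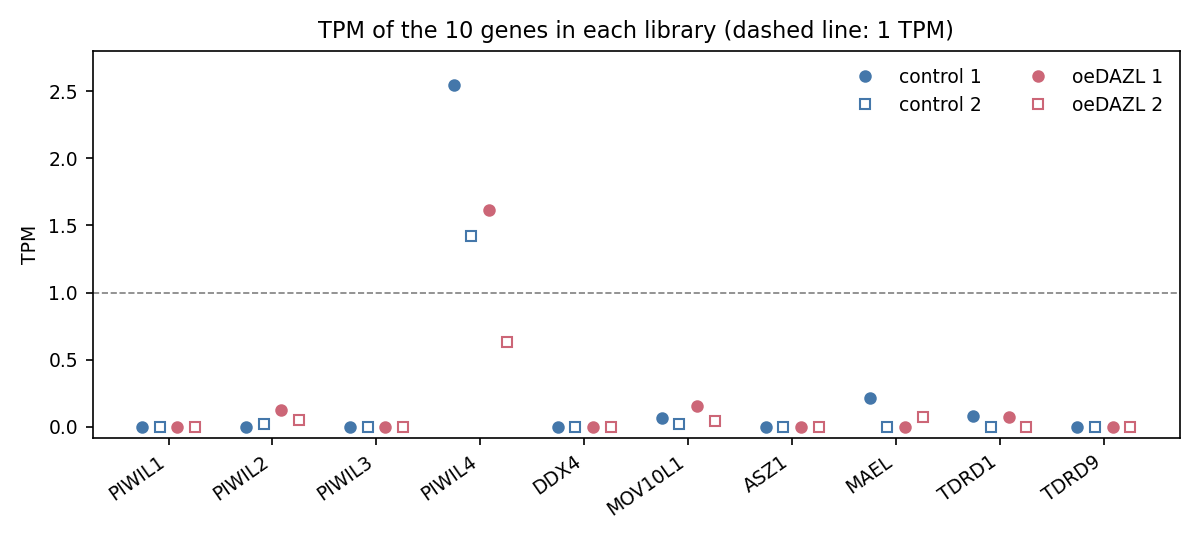
TPM of each of the 10 genes in each library (y axis, TPM), with control libraries in blue, oeDAZL libraries in red, replicate 1 as filled circles and replicate 2 as open squares. PIWIL4 alone crosses the dashed line at 1 TPM, in 3 of the 4 libraries, and its groups overlap, whereas all other points lie at or under 0.217.

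The gene encoding PIWIL4 (ENSG00000134627.12) spans chr11:94543840-94621421 on the plus strand of hg38 in GENCODE 44, and its canonical transcript has 20 exons and 3139 bases. It shares exon bases with another gene. FUT4, a fucosyltransferase gene of 1 exon in the transcript drawn here, lies at chr11:94543921-94549895 on the same strand, and the first exons of 2 PIWIL4 transcripts fall within or across it. Of PIWIL4-202, 533 bases are shared with FUT4, and of PIWIL4-204, 69 bases; both transcripts are annotated as targets of nonsense-mediated decay. The 3 protein-coding transcripts, PIWIL4-201, PIWIL4-203 and PIWIL4-205, share 0 bases. FUT4 was at 11.5 and 9.18 TPM in control and 12.1 and 11.5 TPM in oeDAZL, so that PIWIL4 amounted to 22.2% and 15.5% of FUT4 in control and to 13.4% and 5.50% in oeDAZL. The library with the lowest PIWIL4 value had FUT4 at 11.5 TPM, as had the library with the highest. The share of PIWIL4 that came from reads of the shared exons was not tested, and the level of PIWIL4 is uncertain for this reason. PIWIL4-AS1, a transcript of the opposite strand, was listed at 0 in all 4 libraries.

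**Figure D3:**
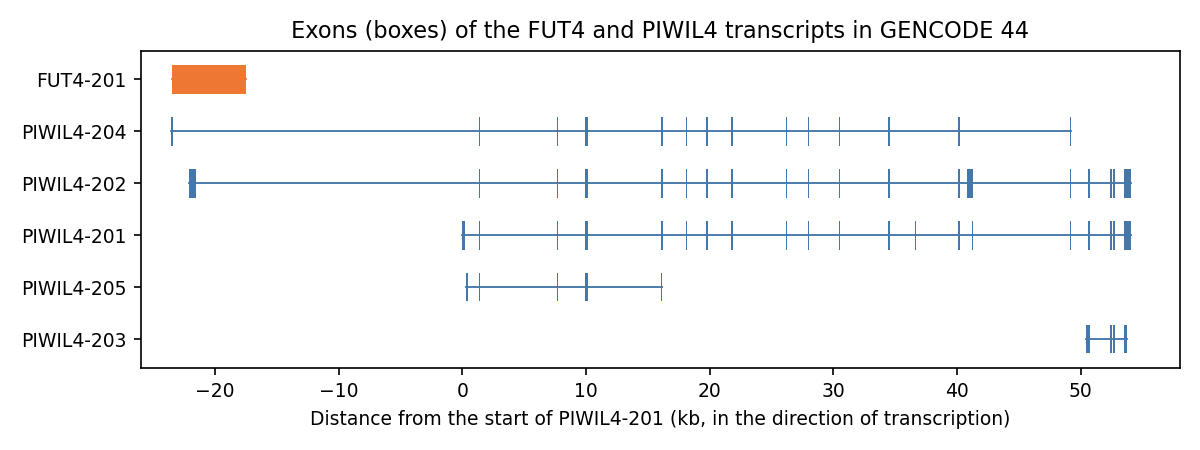
Exons (boxes) and introns (lines) of FUT4 (orange) and of the 5 PIWIL4 transcripts of GENCODE 44 (blue), against the distance in kb from the start of PIWIL4-201 in the direction of transcription. The first exons of PIWIL4-204 and PIWIL4-202 lie at FUT4, sharing 69 and 533 bases with it, and the other 3 transcripts share 0.

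The 3 genes outside all lists whose log2(TPM + 1) values lay nearest to those of PIWIL4 over the 4 libraries were SNX32, at a Euclidean distance of 0.209, the processed pseudogene AC098934.3 at 0.210 and ZNF781 at 0.220. SNX32, for example, was at 2.54 and 1.42 TPM in control and 1.41 and 0.840 in oeDAZL. With 4 libraries the likeness describes these libraries only.

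Among the other PIWI genes, PIWIL2 is the counterpart of mouse MILI, a cytoplasmic PIWI protein of fetal and adult germ cells that cleaves transposon transcripts. It was at 0 and 0.0243 TPM in control and at 0.129 and 0.0550 TPM in oeDAZL. Both oeDAZL libraries were above both controls, the sole case among the 5 members above 0 in any library, where 40.5% of all genes above 0 had groups that did not overlap (54.4% of the tested genes). The difference in log2(TPM + 1) was 0.11 (95% interval -0.06 to 0.28) and did not pass the test when all genes above 0 were fitted (adjusted P = 0.564, limma). PIWIL1, whose mouse counterpart MIWI acts in meiotic and later male germ cells, was at 0 in all 4 libraries, also in a second entry under that name. PIWIL3, a PIWI gene known from oocytes and not found in the mouse, was at 0 as well. PIWIL2 (ENSG00000197181.12) spans chr8:22275316-22357568 (+), PIWIL1 (ENSG00000125207.7) chr12:130337887-130372637 (+) and PIWIL3 (ENSG00000184571.13) chr22:24719034-24774720 (-), with 23, 21 and 21 exons in their canonical transcripts.

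The RNA helicases of the list were at or near 0. MOV10L1 feeds piRNA precursors into processing, and it was at 0.0636 and 0.0242 TPM in control and at 0.157 and 0.0464 TPM in oeDAZL. Its groups overlapped, and the difference in log2(TPM + 1) of 0.08 did not pass the test without a filter on low values (adjusted P = 0.672, limma). DDX4, the VASA helicase and a standard marker of gonadal germ cells, was listed at 0 in all 4 libraries, as was TDRD9, a helicase with a Tudor domain that works with the nuclear PIWI protein in the mouse. DDX4 (ENSG00000152670.18, chr5:55738017-55817157, +, 22 exons) overlaps SLC38A9 on the opposite strand, which was at 36.6 and 36.7 TPM in control and 34.1 and 38.0 TPM in oeDAZL. DDX4 was thus listed at 0 beside an expressed neighbour on the other strand. MOV10L1 (ENSG00000073146.16) spans chr22:50090006-50161690 (+, 27 exons) and TDRD9 (ENSG00000156414.19) chr14:103928456-104052667 (+, 36 exons).

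The scaffold and granule proteins gave the same picture. TDRD1, a Tudor-domain protein that binds methylated arginines of PIWI proteins, was at 0.0810 and 0 TPM in control and 0.0745 and 0 TPM in oeDAZL. Each group held a library at 0, and the difference in log2(TPM + 1) was -0.0043 (adjusted P = 0.989, limma without the filter). MAEL, a protein of nuage that is needed for transposon silencing, was at 0.217 and 0 TPM in control and 0 and 0.0715 TPM in oeDAZL. Its highest value was a control and the groups overlapped (difference -0.09, adjusted P = 0.743, limma without the filter). ASZ1, which sits on the mitochondrial surface where piRNA precursors are cut, was listed at 0 in all 4 libraries. ASZ1 (ENSG00000154438.7, chr7:117363222-117428123, -, 13 exons) lies within the span of CFTR on the opposite strand, and CFTR was at 4.70 and 4.25 TPM in control and 2.32 and 2.91 TPM in oeDAZL. TDRD1 (ENSG00000095627.9) spans chr10:114179270-114232666 (+, 25 exons) and MAEL (ENSG00000143194.13) chr1:166975582-167022214 (+, 12 exons).

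In order of mean TPM, PIWIL4 at 1.55 stood above the rest, and its lowest value of 0.633 TPM was above the highest value of any other member. The next 4, MOV10L1, MAEL, PIWIL2 and TDRD1, had ranges that overlapped one another, so that their order lay within the spread of the libraries, and the other 5 were tied at 0. Only PIWIL4 passed the filter on low values, and 9 members did not. When all 33251 genes above 0 in any library were fitted, 5 members could be tested, and none had an unadjusted P-value under 0.05. None was called, against 0.328% of all genes, but 4 of the 5 could not have been. These 4 lay at 0.217 TPM or less, where the log2(TPM + 1) scale does not allow a 2-fold difference. For a gene on its own, the smallest P-value that exact permutation of the 4 libraries allows is 0.333. TPM keeps no read depth, so that a value of 0 says only that the gene is listed at 0, and differences among values near 0 may not be detectable at the depth of these libraries, which is unknown.

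The Argonaute genes, which serve microRNAs in all cells, were by contrast all above 1 TPM. AGO2, the Argonaute that can cut its target, was at 24.6 and 23.3 TPM in control and 25.2 and 24.7 TPM in oeDAZL. AGO1 was at 19.3 and 17.9 TPM in control and 16.3 in both oeDAZL libraries, and AGO4 at 16.1 and 15.6 against 14.0 and 14.1. Both oeDAZL libraries were under both controls for AGO1 and AGO4 and above both for AGO2. Such a separation, in either direction, was seen for 54.4% of all tested genes. AGO3 was at 5.88 and 5.51 against 5.64 and 5.45, with overlapping groups. None of the 4 was called, beside 0.689% of all tested genes, and none had an unadjusted P-value under 0.05, beside 20.2%. The log2 fold changes were 0.06 (95% interval -0.14 to 0.26) for AGO2, -0.18 (-0.40 to 0.05) for AGO1, -0.16 (-0.39 to 0.06) for AGO4 and -0.03 for AGO3. The lowest adjusted P-value was 0.332 (limma), and AGO3 turned positive under median-of-ratios scaling and quantile normalization.

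The piRNA partner genes comprise 24 further genes that make, trim, modify or anchor piRNAs and PIWI proteins, of which 23 were found in the table (TDRD12 was not found under that name). GTSF1, a cofactor of PIWI cleavage, and TDRD15 were at 0 in all 4 libraries, and 13 of the 23 did not exceed 1 TPM. The 3 highest have well-known roles outside the germ line. HSP90AA1, a general chaperone, was at 738 and 750 TPM in control and at 1007 and 989 TPM in oeDAZL. PRMT5, the methyltransferase that marks arginines of PIWI proteins and of many others, was at 106 and 107 against 115 and 116 TPM, and WDR77, its obligate partner, at 68.8 and 72.6 against 84.0 and 85.2. TDRD7, a Tudor-domain protein, was at 11.9 and 10.1 against 9.64 and 10.1 TPM.

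HSP90AA1, PRMT5 and WDR77 each had both oeDAZL libraries above both controls, whereas the groups of TDRD7 overlapped. Groups that did not overlap were found for 54.4% of all tested genes. None of the 9 tested partners was called, beside 0.689% of all tested genes. By sign 5 were higher and 4 lower in oeDAZL, the median log2 fold change was 0.06 and the range -0.30 to 0.42. HSP90AA1 (log2 fold change 0.42, SE 0.05) and WDR77 (0.26, SE 0.06) had unadjusted P-values under 0.05, and neither passed after adjustment over all genes (adjusted P = 0.0836 and 0.120, limma). Under each of the scalings tried these 2 genes were higher in oeDAZL. Among the other tested partners, TDRKH, the mitochondrial anchor of PIWI proteins during trimming, was at 9.27 and 9.86 TPM in control and 10.9 and 10.3 TPM in oeDAZL. MYBL1, the transcription factor that drives piRNA genes at meiosis, was at 3.44 and 4.36 against 4.07 and 4.14, and SPOCD1, which links the nuclear PIWI protein to DNA methylation, at 2.41 and 4.07 against 2.83 and 2.82. KIF17 was at 2.12 and 1.98 TPM in control and 1.91 and 1.27 in oeDAZL. HENMT1 was at 1.19 and 1.62 against 0.764 and 1.15. FKBP6, which did not pass the filter, was at 1.01 and 1.13 against 0.511 and 0.292. For KIF17, HENMT1 and FKBP6 both oeDAZL libraries were under both controls, and for TDRKH they were above. The partners from TDRKH to FKBP6 were named after their values were seen. Transcripts of several partner genes were present in the libraries in which 9 of the 10 listed genes were at or near 0.

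**Figure D4:**
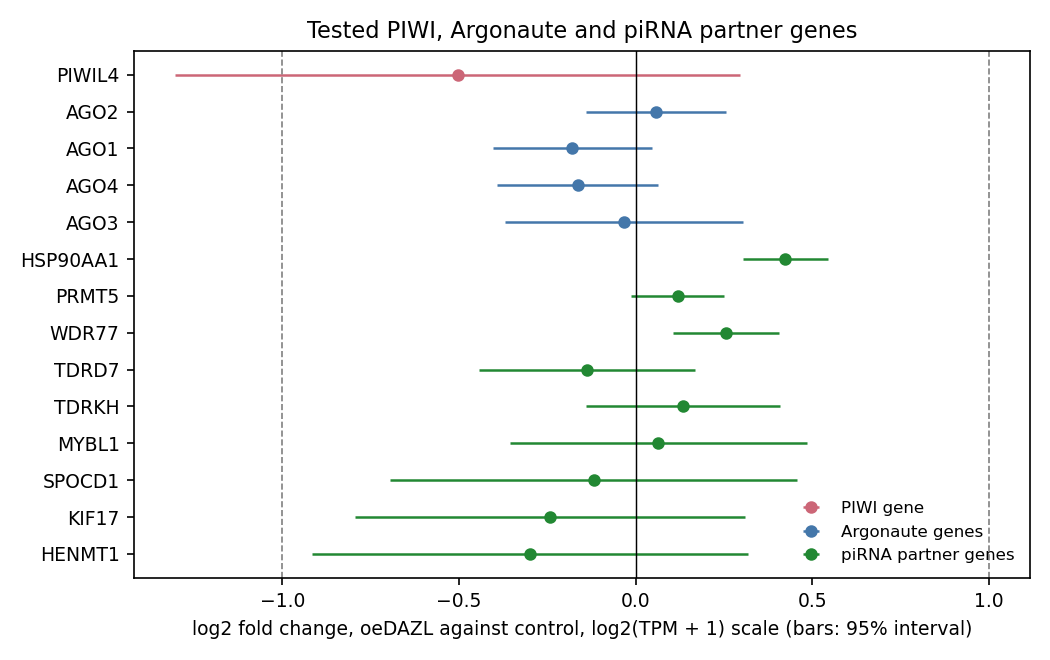
Log2 fold change of oeDAZL against control on the log2(TPM + 1) scale for the tested PIWI gene (red), the Argonaute genes (blue) and the piRNA partner genes (green), with bars for the 95% interval from limma and dashed lines at a fold change of 2. All 14 points lie between the dashed lines, and PIWIL4, at -0.50, has the widest interval, from -1.30 to 0.30.

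Transposons are also held back outside the piRNA pathway, by DNA methylation, by repressive chromatin and by enzymes that attack their nucleic acids. Of 25 such genes, 23 were above 1 TPM, and the exceptions were DNMT3L, the germline cofactor of de novo methylation, and TREX1. TRIM28, the corepressor that KRAB zinc finger proteins bring to transposons, was at 480 and 444 TPM in control and 404 and 416 TPM in oeDAZL. DNMT1, the maintenance methyltransferase, was at 122 in both controls and at 113 and 112 in oeDAZL. PPHLN1, a subunit of the HUSH silencing complex, was at 59.4 and 61.6 against 64.7 and 59.9, and DNMT3B, a de novo methyltransferase, at 49.1 and 51.6 against 61.1 and 58.2. For TRIM28 and DNMT1 both oeDAZL libraries were under both controls, for DNMT3B they were above, and the groups of PPHLN1 overlapped. Across all tested genes, 54.4% had groups that did not overlap.

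None of the 23 tested genes of this group was called, beside 0.689% of all tested genes, and none passed after adjustment. The lowest adjusted P-value was 0.106 (limma), that of APOBEC3F, at 6.67 and 6.50 TPM in control and 3.36 and 3.93 in oeDAZL. The median log2 fold change was -0.17, with 19 genes lower and 4 higher, beside -0.08 for all tested genes. Unadjusted P-values under 0.05, which 20.2% of all tested genes had, were found for DNMT3B on the higher side. On the lower side 7 genes had them, TRIM28 (log2 fold change -0.17, adjusted P = 0.195, limma) among them. The split depended on scaling, at 8 higher and 15 lower after median-of-ratios scaling, with 3 genes in place of 7 under 0.05 on the lower side. The called state of APOBEC3G, a cytidine deaminase that restricts retroelements, depended on 1 library and on the pseudocount. It was at 2.73 and 1.80 TPM in control and 0.563 and 1.28 in oeDAZL (log2 fold change -0.77), and it passed the call rule only without oeDAZL replicate 2 (-1.05) or with a pseudocount of 0.1 (-1.28).

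The TPM table counts genes and not transposon copies, so that transposon transcripts themselves were not analysed here. In their place, though not as a measure of them, a list of 22 genes derived from retroelements was read. Of these, 17 were above 1 TPM in some library. PEG10, a placental gene of retrotransposon origin, was at 182 and 216 TPM in control and 251 and 241 TPM in oeDAZL (log2 fold change 0.31, SE 0.09, adjusted P = 0.154, limma). RTL8C, of the same origin, was at 176 in both controls and at 174 and 171 in oeDAZL, and RTL8A at 86.6 and 75.1 against 73.0 and 70.5. L1TD1, an RNA-binding protein derived from LINE-1, was at 151 and 144 against 156 and 152 TPM. None of the 14 tested genes was called, beside 0.689% of all tested genes. The lowest adjusted P-value was 0.130 (limma), that of ERV3-1, at 36.0 and 28.0 TPM in control and 22.7 and 21.5 in oeDAZL. Unadjusted P-values under 0.05 were found for 1 gene on the higher side, PEG10, and 5 on the lower side, beside 20.2% of all tested genes. After median-of-ratios scaling these numbers were 3 and 3. The median log2 fold change was -0.12, with 5 genes higher and 9 lower, which became 7 and 7 after median-of-ratios scaling, where RTL8C changed sign.

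The value of PIWIL4 was followed through the alternative settings plotted beside it. Its log2 fold change ran from -0.84 to -0.16 and stayed negative in each of these settings, and the 95% interval included 0 in each. It was -0.84 with a pseudocount of 0.1. When 1 library was left out it was -0.23 without control replicate 1 and -0.16 without oeDAZL replicate 2, and -0.78 without control replicate 2 and -0.84 without oeDAZL replicate 1, with a lone library left in that group and assumed to vary like the other group.

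**Figure D5:**
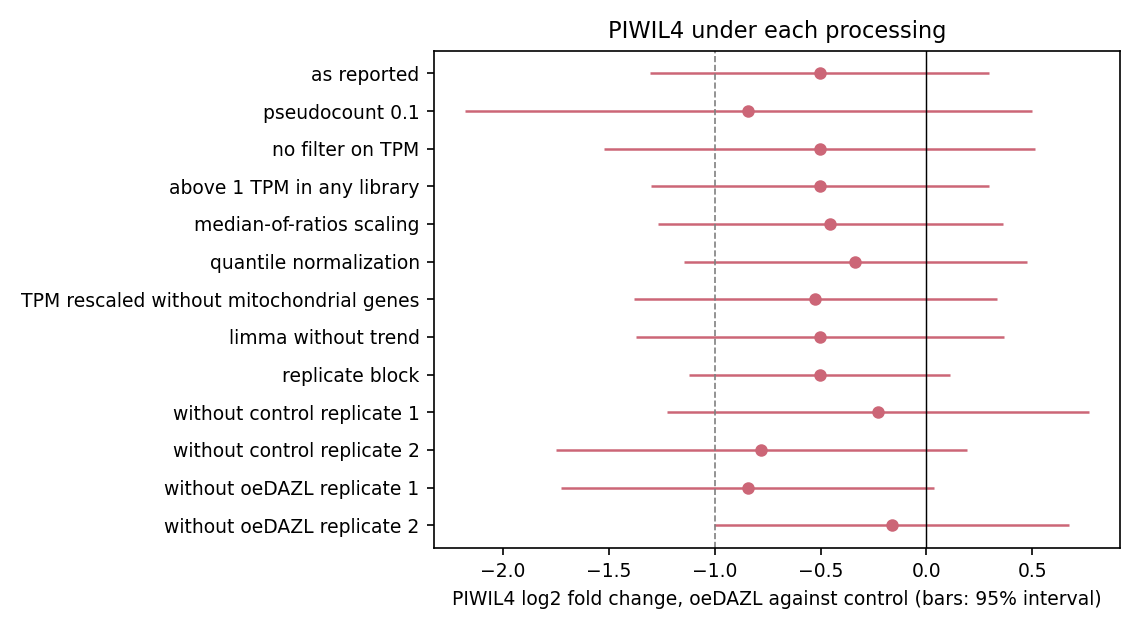
Log2 fold change of PIWIL4, oeDAZL against control (x axis), under each setting (y axis), with bars for the 95% interval from limma, a solid line at 0 and a dashed line at a 2-fold fall. The points lie between -0.84 and -0.16, and every bar crosses 0.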

How the data were processed

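RNA sequencing of 2 control and 2 oeDAZL libraries was analysed, and the 6 miRNA libraries of the series were not used here. The authors deposited TPM per gene, with 1 column per library. According to the methods, reads were trimmed, mapped to hg38 with HISAT2, kept where uniquely mapped and quantified with StringTie. The submitters' processing notes list HISAT2 2.1.0, StringTie 2.1.4 and Trim Galore 0.6.4. The annotation release is not given in the sources used here. TPM sums to the same total in each library and keeps no depth, so no interval for counting error or detection floor was computed.

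Of 65003 entries, 45 copies of pseudoautosomal genes and 18 repeats were left out. The libraries held 26695 to 28019 genes above 0, and mitochondrial genes took 12.6% to 14.1% of TPM. On the log2(TPM + 1) scale of the deposited TPM, limma 3.58.1 (R 4.3.3) was run on 16687 genes whose mean was 1 TPM or more (trend on mean level, no covariates, P-values adjusted over all genes by Benjamini-Hochberg), after a check on simulated data. The fold change and P-value thresholds follow the methods, which used DESeq2 on read counts that were not used here. A replicate number alone links the groups, so no block was used.

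Named were the 10 genes, DAZL, the genes called and the 4 with the highest mean TPM of each other list, and the 3 genes nearest to PIWIL4, with exceptions stated. Of the marker lists only the sums, the genes called, those that bear on germ cells and, chosen after their values were seen, those that carry or oppose a sum are given. The members and all lists were chosen with earlier results of these data known. Gene positions came from GENCODE 44 (hg38) and promoter windows from RefSeq (GRCh38.p14). Alternatives were the pseudocount, the filter, the scaling, the trend, a replicate block, the adjusted P-value as the rule and leaving out each library.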

Additional observations from a re-analysis of the deposited data

How the results depend on the processing

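No member was called under any alternative, and no member could be tested at a mean TPM of at least 5. Only PIWIL4 was high enough for a call to be possible in any of them. The background of all genes did depend on the processing, from 21 called higher and 94 lower in oeDAZL. The numbers were 55 higher and 267 lower with a pseudocount of 0.1, 6 and 23 where the filter asked for 5 TPM, 41 and 52 after quantile normalization, and 4 and 6 with the adjusted P-value as the rule (limma). Lower genes were 81.7% of the calls as reported, 75% after median-of-ratios scaling and 55.9% after quantile normalization. Leaving out 1 library gave 35 to 87 higher and 85 to 235 lower, with 87 and 235 without control replicate 2. The other transposon-defence genes had 1 call, APOBEC3G, with a pseudocount of 0.1, and 0 to 1 when 1 library was left out. The median log2 fold change of the tested members was -0.0043 without a filter, where 5 members were tested in place of 1. With a pseudocount of 0.1 the differences of genes near 0 were larger, at 0.76 for PIWIL2, 0.45 for MOV10L1 and -0.44 for MAEL. The replicate block gave 26 higher and 99 lower, changed no call on a list and left PIWIL4 at an adjusted P of 0.367 (limma). Same-numbered libraries did not deviate together (correlation over genes -0.10), and the crossed pairing, chosen after seeing the data, gave 28 and 107. With 2 libraries per group and no read depth, small differences among low genes cannot be resolved.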
